A study of Mus musculus with 17 samples.

Results

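The genes described here are 45 genes of DNA replication and of mitosis, read in 12 RNA-seq libraries of a mouse study on supratentorial ependymoma, a brain tumour in which YAP can be fused to another protein. They were taken by symbol from a list, and all 45 were found among the 52850 gene symbols of the count tables: 19 act in S phase, when DNA is copied, and 26 in mitosis, when the copied chromosomes are separated. The YAP-M group holds 4 libraries of brain tumours raised by in utero electroporation with YAP-M, a fusion of the transcriptional co-activator YAP known from this tumour type. The YMdIDR group holds 3 libraries in which YAP-MΔIDR, the fusion without its intrinsically disordered region, is overexpressed; their source label gives brain tumour tissue, while their tissue label gives neural progenitors made from embryonic stem (ES) cells. The SVZ group holds 3 wild-type libraries named for the subventricular zone, the stem cell niche of the adult forebrain. Its tissue label nevertheless reads brain tumor. The NSC-YAP group holds 2 libraries of cultured ES-derived neural progenitor cells that overexpress YAP and were grown with EGF, bFGF and heparin. The labels give no strain, no age and no number of animals, tumours or cultures, and they do not name the cell type in which the electroporated genes are active. NSC-YAP differs from SVZ by YAP, by culture and by cell type at once, and these cannot be told apart. The 5 chromatin samples of the series were not analysed here.

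DNA replication begins with licensing. ORC, CDC6 and CDT1 load the MCM2-7 helicase onto origins, and CDC45 and the GINS complex join it so that it can unwind DNA, while PCNA clamps the polymerases to the template and ribonucleotide reductase, thymidylate synthase and thymidine kinase supply the nucleotides. Many of these genes are targets of E2F transcription factors, which are set free when cyclin E and CDK2 phosphorylate RB. Genes of mitosis are read later in the cycle, under the MuvB complex with B-MYB (Mybl2) and FOXM1, which binds promoters through a cell cycle homology region (CHR), often near CCAAT boxes. In the subventricular zone a minority of cells divides, and proliferation is a defining feature of tumours.

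The promoters of the S phase and mitotic members differed in their letters. RefSeq start sites (assembly GRCm38.p6, the sequence of mm10) gave a window of 250 bases before to 50 bases after the start for 37 of the 45 members, 16 of S phase and 21 of mitosis. No window was matched for Tpx2, Foxm1, Aurkb, Ccna2, Kif20a, Ccne2, Mcm4 and Gins2. Letters of 3 kinds were searched on both strands: E2F type letters (TTCCCGC, also TTGGCGC, also TTCGCGC, also TTGCCGC), CHR type letters (TTTGAA, also TTCGAA) and CCAAT. On the other strand TTGGCGC reads GCGCCAA, which can overlap a CCAAT. E2F type letters stood in 9 of 16 S phase windows (56.25%) and 3 of 21 mitotic windows (14.29%), against 10.86% of 27025 mouse promoter windows. CHR type letters stood in 4 of 16 S phase windows (25.0%) and 15 of 21 mitotic windows (71.43%), against 21.66% of all. In 14 of those 15 mitotic windows a match lay within 60 bases of the start. In the 100 bases before the start alone, E2F type letters stood in 2 of 16 S phase and 1 of 21 mitotic windows, and CHR type letters in 2 of 16 and 6 of 21. CCAAT stood in 62.5% and 76.19% of the windows, against 41.06% of all, and CHR type letters together with CCAAT in 4 of 16 S phase and 14 of 21 mitotic windows, against 9.654% of all. A match is a description of letters and not a binding site, and a RefSeq start can differ from the gene end given in the count tables. The 150 bases before the start are printed for members on which the expression results turn, 5′ to 3′ in the direction of the gene, with matches in capitals. Mcm5 and Cdc6 represent the windows with E2F type letters, and Cdk1, Cdc20 and Ube2c those with CHR type letters. Ccnb1 and Ccnb2 parted between the groups in expression, as Rrm2, Ccne1 and E2f1 did from other S phase genes and Nusap1 from other mitotic genes.
Mcm5, chr8:75109359-75109508, plus strand: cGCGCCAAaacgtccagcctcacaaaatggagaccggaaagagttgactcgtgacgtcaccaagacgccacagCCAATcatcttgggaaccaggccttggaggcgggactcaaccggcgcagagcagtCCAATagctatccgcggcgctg
Cdc6, chr11:98908001-98908150, plus strand: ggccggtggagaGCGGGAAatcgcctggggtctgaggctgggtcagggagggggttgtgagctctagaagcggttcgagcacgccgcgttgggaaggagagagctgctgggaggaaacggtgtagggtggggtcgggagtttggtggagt
Rrm2, chr12:24708104-24708253, plus strand: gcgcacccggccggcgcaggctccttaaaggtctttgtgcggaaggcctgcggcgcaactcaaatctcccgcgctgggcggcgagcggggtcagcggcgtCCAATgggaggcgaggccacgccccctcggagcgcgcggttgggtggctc
Ccne1, chr7:38107491-38107640, minus strand: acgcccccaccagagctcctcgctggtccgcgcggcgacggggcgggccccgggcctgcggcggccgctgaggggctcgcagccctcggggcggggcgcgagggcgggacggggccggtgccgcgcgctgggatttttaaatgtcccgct
E2f1, chr2:154569427-154569576, minus strand: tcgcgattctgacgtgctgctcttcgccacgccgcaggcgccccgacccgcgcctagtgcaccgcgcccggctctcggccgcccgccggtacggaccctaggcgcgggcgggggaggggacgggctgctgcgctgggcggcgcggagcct
Cdk1, chr10:69352913-69353062, minus strand: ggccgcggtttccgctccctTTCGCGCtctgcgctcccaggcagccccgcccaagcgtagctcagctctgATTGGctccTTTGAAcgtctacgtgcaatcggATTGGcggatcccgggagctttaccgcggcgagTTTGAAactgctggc
Cdc20, chr4:118437344-118437493, minus strand: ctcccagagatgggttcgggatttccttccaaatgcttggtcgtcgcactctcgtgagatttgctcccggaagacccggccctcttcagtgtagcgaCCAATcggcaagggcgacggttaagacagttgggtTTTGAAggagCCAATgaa
Ube2c, chr2:164769779-164769928, plus strand: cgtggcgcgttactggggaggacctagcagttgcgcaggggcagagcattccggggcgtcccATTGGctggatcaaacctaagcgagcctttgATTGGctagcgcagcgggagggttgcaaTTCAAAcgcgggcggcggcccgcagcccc
Ccnb1, chr13:100786487-100786636, minus strand: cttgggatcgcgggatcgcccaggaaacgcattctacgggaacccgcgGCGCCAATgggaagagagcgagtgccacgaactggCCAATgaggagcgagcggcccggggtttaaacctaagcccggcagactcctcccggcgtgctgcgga
Ccnb2, chr9:70421555-70421704, minus strand: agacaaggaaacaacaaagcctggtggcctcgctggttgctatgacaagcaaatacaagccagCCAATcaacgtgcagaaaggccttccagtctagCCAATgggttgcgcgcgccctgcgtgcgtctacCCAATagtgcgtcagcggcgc
Nusap1, chr2:119618148-119618297, plus strand: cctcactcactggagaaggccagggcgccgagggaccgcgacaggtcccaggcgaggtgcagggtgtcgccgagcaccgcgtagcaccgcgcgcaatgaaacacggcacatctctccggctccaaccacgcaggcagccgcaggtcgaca
Mcm5 carries E2F type letters at the left end of its stretch and CCAAT at 2 places, and Cdc6 carries E2F type letters near its left end. In Cdk1, TTTGAA stands at 2 places and ATTGG, the other strand of CCAAT, at 2, with TTCGCGC further upstream. Ccnb2 has 3 CCAATs in the printed stretch, and Ccnb1 has 2, the first of them running into a GCGCCAA. The whole window of Ccnb2 also holds CHR type letters at -167 and 4 bases from the start, outside the printed stretch. The whole window of Ccnb1 holds no CHR type letters. Ccne1, E2f1 and Nusap1 have none of the searched letters in the whole window, which says only that these letters are not there. The whole windows of E2f1 and Cdc6 lie inside the genes as the count tables give them. There E2f1, on the minus strand, begins at 154569892, and Cdc6, on the plus strand, at 98907801. Bases upstream of these positions were not searched, so the windows of E2f1 and Cdc6 may miss the promoter. The window of Pttg1, both windows of Mcm7 and the downstream window of E2f2 also lie wholly inside those genes. All of these windows enter the shares above. For Rrm2 the E2F type match lies further upstream than the printed stretch.

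**Figure D1:**
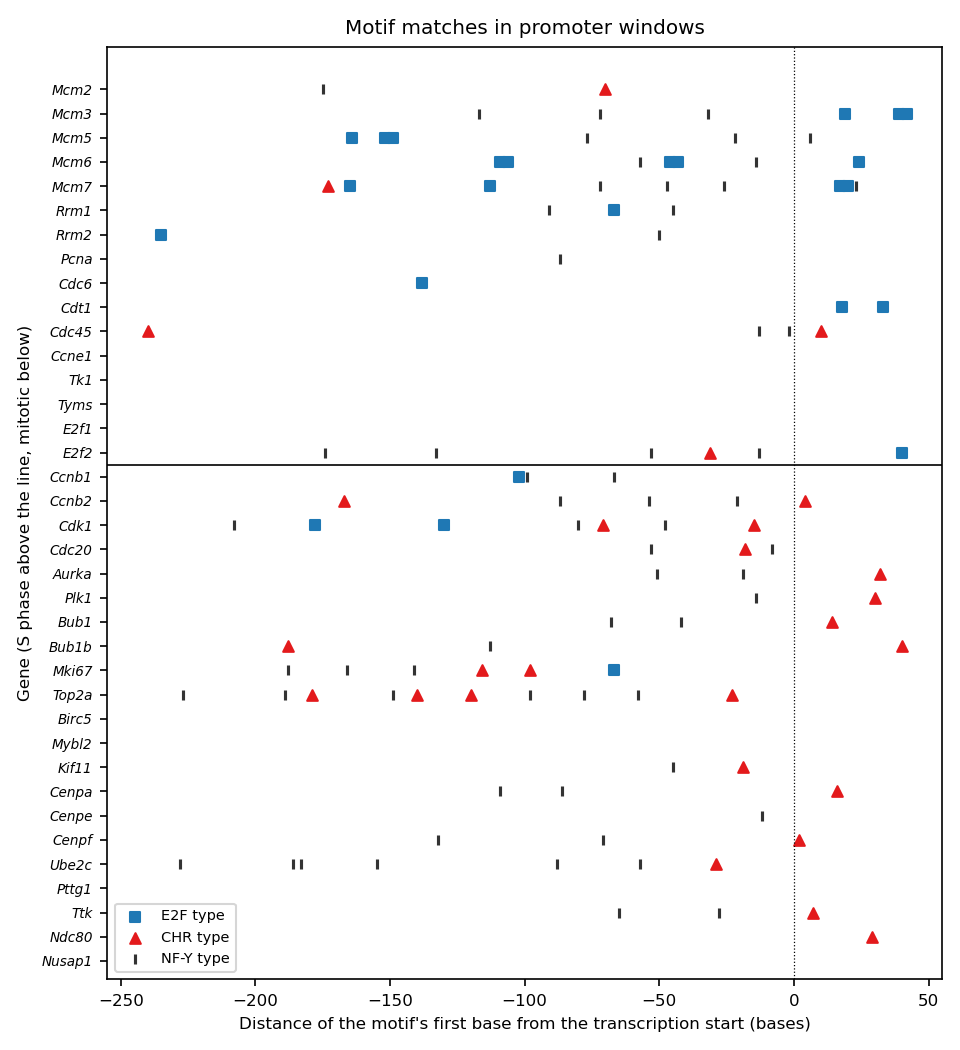
Positions of the searched letters in the promoter windows of 37 members, with distance from the RefSeq start in bases on the horizontal axis and 1 row a gene (Mcm7 and E2f2 have 2 windows each, drawn on 1 row). E2F type marks stand in 9 of 16 S phase rows and CHR type marks in 15 of 21 mitotic rows, most of the latter close to the start.

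The 12 libraries held 20784130 to 25463303 counts each, and every member passed the filter on low counts: its lowest count in any library was 13, and 38 of 45 had at least 30 counts in each SVZ library. Levels are CPM, counts scaled to library size with TMM factors that correct for RNA composition, and values of a group are listed by replicate number. Yap1 read 21.5 to 27.9 CPM in SVZ, 238 to 241 in NSC-YAP, 183, 838 and 1274 in YMdIDR and 92.7 to 105 in YAP-M. Counts of Yap1 do not separate the mouse gene from a transgene. Markers bore out the labels in part. The summed level of 12 neuron markers was 5545 to 5826 CPM in SVZ and at most 826 elsewhere, and that of 10 oligodendrocyte markers 28885 to 34674 in SVZ and at most 3412 elsewhere. In NSC-YAP, 5 of 10 microglia and macrophage markers (Aif1, Cx3cr1, P2ry12, Ptprc, Itgam) and 4 of 8 endothelial and pericyte markers (Cdh5, Cldn5, Tek, Pdgfrb) were under 0.2 CPM in both libraries. YMdIDR read 1687 to 1823 CPM over the macrophage list and 328 to 332 over the endothelial list, with none of these genes under 0.2 CPM throughout, which goes against a culture of progenitor cells only. YAP-M read 1373 to 2144 and 362 to 487 CPM over the same lists. Over 9 neural progenitor markers the sums were 313 to 345 CPM in SVZ, 1722 to 2354 in YAP-M, 2754 to 3879 in YMdIDR and 4069 to 4314 in NSC-YAP. Against SVZ, 3 of the 9 had a positive log2 fold change in YAP-M, 3 in YMdIDR and 8 in NSC-YAP. The median log2 fold changes of the 9 were -1.56, -0.75 and 2.85, so the sums of YAP-M and YMdIDR rest on a minority of these genes. Whether replicates are separate animals or cultures is not labelled, so p-values measure the spread between these libraries, which may be technical.

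Against SVZ, YAP-M and YMdIDR, the fusion groups, read all 45 members higher, and NSC-YAP read 42 of them higher. A call here means that the levels differed by 1 or more on the log2 scale and that the Benjamini-Hochberg adjusted p of edgeR's quasi-likelihood test was below 0.05. Of the 18329 genes tested, YAP-M had 25.8% called higher and 28.9% lower, YMdIDR 26.9% and 29.6%, and NSC-YAP 17.5% and 27.6%. The median log2 fold change of the S phase members was 2.75 in YAP-M, 3.13 in YMdIDR and 2.38 in NSC-YAP, and that of the mitotic members 3.74, 3.66 and 3.67, while the medians over all genes were -0.04, -0.01 and -0.10. All 3 comparisons use the same SVZ libraries, so they are not independent of each other. Among the called members the largest adjusted p was 0.00266 in YAP-M and 0.00841 in NSC-YAP, both for E2f2, and 4.95e-05 in YMdIDR, for Ccne2. The 3 exceptions all belong to the start of S phase. In NSC-YAP the log2 fold change was 0.28 ± 0.28 (SE, adjusted p = 0.401) for Ccne1, -0.49 ± 0.29 (0.164) for Ccne2 and 0.28 ± 0.18 (0.187) for E2f1. In bulk RNA, more dividing cells and more RNA of these genes per cell cannot be told apart. The marker sums above move with the same comparison: neuron and oligodendrocyte markers are highest in SVZ, and their part in the member values was not tested.

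**Figure D2:**
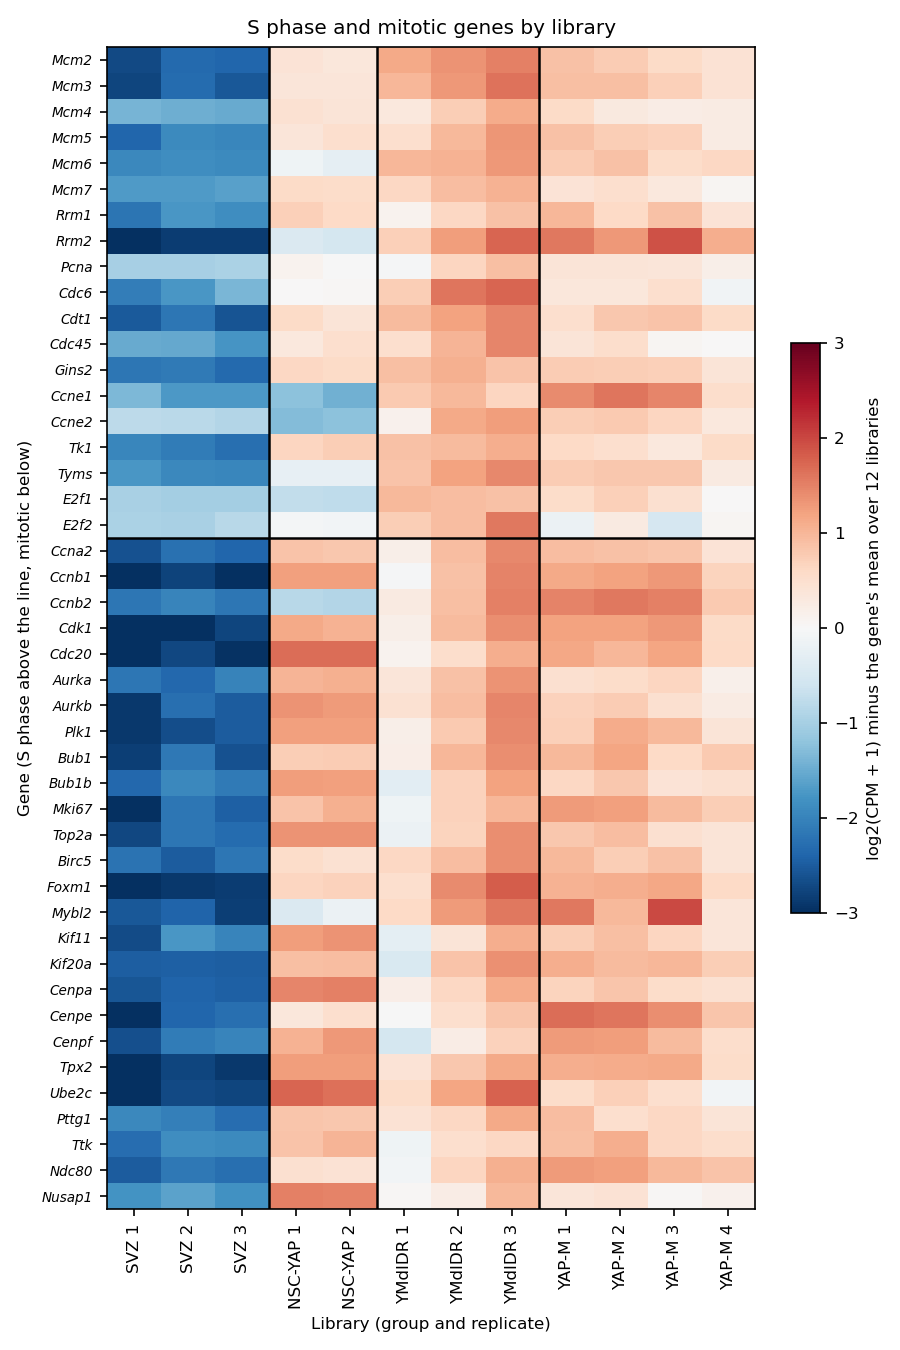
Level of each of the 45 members (rows, S phase above mitotic) in each of the 12 libraries (columns), as log2(CPM + 1) minus the gene's mean over the libraries, with colours ending at 3 in either direction. The 3 SVZ columns are the lowest for nearly every gene, NSC-YAP is low among the other groups for Ccne1, Ccne2, E2f1, Rrm2 and Ccnb2, and the first YMdIDR column is pale beside the third.

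The 6 Mcm genes, Cdc6 and Cdt1, which act in origin licensing, rose in all 3 groups against SVZ. Mcm2 (ENSMUSG00000002870, chromosome 6, 88883474 to 88898780, minus strand, mm10 as for all members) encodes a subunit of the MCM2-7 helicase and stood at 5.66, 7.60 and 7.38 CPM in SVZ, 56.6 and 53.6 in NSC-YAP, 94.6, 109 and 121 in YMdIDR, and 78.6, 72.6, 63.4 and 57.2 in YAP-M. No 2 groups overlapped, and the order was YMdIDR, YAP-M, NSC-YAP, SVZ. Its log2 fold change against SVZ was 3.30 ± 0.16 in YAP-M, 3.98 ± 0.17 in YMdIDR and 3.001 ± 0.17 in NSC-YAP. Mcm3 (ENSMUSG00000041859, chromosome 1, 20802968 to 20820312, minus strand) followed the same order without overlap, at 4.05, 5.89 and 4.84 CPM in SVZ, 42.9 and 42.3 in NSC-YAP, 66.7, 82.4 and 104 in YMdIDR, and 62.00, 62.02, 54.7 and 44.5 in YAP-M. The largest rise of the 6 Mcm genes was that of Mcm3 in YMdIDR, at 4.10 ± 0.21 on the log2 scale. Mcm4 (ENSMUSG00000022673, chromosome 16, 15623897 to 15637400, minus strand) stood at 12.99, 12.2 and 11.9 CPM in SVZ, 49.2 and 46.9 in NSC-YAP, 44.2, 59.5 and 78.4 in YMdIDR, and 53.2, 44.1, 41.4 and 42.4 in YAP-M. Its 3 non-SVZ groups overlapped from neighbour to neighbour, and it rose against SVZ by 1.87 ± 0.18 in YAP-M, 2.29 ± 0.19 in YMdIDR and 1.96 ± 0.20 in NSC-YAP. Mcm5 (ENSMUSG00000005410, chromosome 8, 75109569 to 75128439, plus strand) read 4.93, 7.15 and 6.94 CPM in SVZ, 38.5 and 42.6 in NSC-YAP, 42.5, 59.5 and 76.04 in YMdIDR, and 55.6, 50.2, 48.2 and 35.6 in YAP-M. Its 3 non-SVZ groups overlapped. Mcm6 (ENSMUSG00000026355, chromosome 1, 128331590 to 128359664, minus strand) read 10.8, 11.3 and 10.9 CPM in SVZ, 40.3 and 36.5 in NSC-YAP, 88.6, 91.6 and 110.2 in YMdIDR, and 75.5, 81.7, 64.9 and 68.6 in YAP-M. Its groups stood apart, and NSC-YAP was below both fusion groups. Mcm7 (ENSMUSG00000029730, chromosome 5, 138164583 to 138172422, minus strand) read 14.9, 15.1 and 15.7 CPM in SVZ, 76.5 and 75.5 in NSC-YAP, 79.5, 98.4 and 106 in YMdIDR, and 68.6, 72.6, 63.5 and 52.9 in YAP-M, with groups apart and YAP-M below NSC-YAP. Cdc6 (ENSMUSG00000017499, chromosome 11, 98907801 to 98923940, plus strand), which loads the helicase, was the member with the fewest reads per length in SVZ and read 0.599, 0.989 and 1.61 CPM in SVZ, 5.78 and 5.87 in NSC-YAP, 10.1, 19.5 and 21.4 in YMdIDR, and 7.54, 7.52, 8.49 and 5.23 in YAP-M. YMdIDR stood above all other libraries, YAP-M and NSC-YAP overlapped, and the log2 fold change against SVZ was 2.75 ± 0.36 in YAP-M, 3.99 ± 0.38 in YMdIDR and 2.45 ± 0.40 in NSC-YAP. Cdt1 (ENSMUSG00000006585, chromosome 8, 122568015 to 122573554, plus strand), its partner in loading, read 1.61, 2.34 and 1.47 CPM in SVZ, 21.05 and 18.4 in NSC-YAP, 27.6, 33.2 and 40.1 in YMdIDR, and 19.98, 24.97, 25.9 and 21.3 in YAP-M. It was among the 3 largest rises of the S phase list in each comparison with SVZ, at 3.67 ± 0.21 in YAP-M, 4.21 ± 0.22 in YMdIDR and 3.44 ± 0.22 in NSC-YAP.

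At the fork, Cdc45 (ENSMUSG00000000028, chromosome 16, 18780447 to 18811987, minus strand), the helicase cofactor, read 2.76, 2.70 and 2.15 CPM in SVZ, 12.3 and 14.1 in NSC-YAP, 14.2, 20.6 and 28.4 in YMdIDR, and 13.1, 14.4, 10.2 and 9.83 in YAP-M. YMdIDR had the highest mean, and YAP-M overlapped both YMdIDR and NSC-YAP. Gins2 (ENSMUSG00000031821, chromosome 8, 120578633 to 120589304, minus strand), a GINS subunit, read 1.01, 1.08 and 0.782 CPM in SVZ, 12.8 and 12.4 in NSC-YAP, 15.7, 17.8 and 15.2 in YMdIDR, and 14.3, 14.04, 13.6 and 10.7 in YAP-M, and YAP-M overlapped NSC-YAP. Its rise against SVZ was 3.77 ± 0.18 in YAP-M, 4.07 ± 0.18 in YMdIDR and 3.71 ± 0.19 in NSC-YAP, the largest of the S phase list in NSC-YAP. Pcna (ENSMUSG00000027342, chromosome 2, 132249162 to 132253314, minus strand), the sliding clamp, is also used in DNA repair and read 44.7, 44.8 and 46.9 CPM in SVZ, 98.3 and 90.6 in NSC-YAP, 88.2, 141 and 171 in YMdIDR, and 118, 119.9, 117 and 103 in YAP-M. It was the S phase member with the most CPM per kilobase of the deposited gene length in SVZ, and it had the smallest rises of the list against SVZ apart from the cyclin E and E2F genes, at 1.34 ± 0.18 in YAP-M, 1.56 ± 0.19 in YMdIDR and 1.06 ± 0.21 in NSC-YAP. Among the genes of nucleotide supply, Rrm1 (ENSMUSG00000030978, chromosome 7, 102441695 to 102469771, plus strand), the large subunit of ribonucleotide reductase, read 17.3, 24.1 and 22.2 CPM in SVZ, 138 and 127 in NSC-YAP, 89.8, 129 and 154 in YMdIDR, and 166, 126, 153 and 112 in YAP-M. Its 3 non-SVZ groups overlapped. Rrm2 (ENSMUSG00000020649, chromosome 12, 24708241 to 24714146, plus strand), the small subunit made in S phase, read 6.08, 6.83 and 6.84 CPM in SVZ, 40.9 and 38.2 in NSC-YAP, 91.3, 132 and 189 in YMdIDR, and 168, 138, 209 and 118 in YAP-M. Both fusion groups lay above NSC-YAP and overlapped each other, and the rise of 4.59 ± 0.29 in YAP-M was the largest of any member there, against 4.38 ± 0.29 in YMdIDR and 2.59 ± 0.29 in NSC-YAP. Tk1 (ENSMUSG00000025574, chromosome 11, 117815526 to 117826092, minus strand), thymidine kinase, read 1.84, 1.57 and 1.27 CPM in SVZ, 16.2 and 17.3 in NSC-YAP, 19.02, 20.3 and 22.5 in YMdIDR, and 15.5, 14.6, 12.7 and 15.4 in YAP-M, with groups apart in the order YMdIDR, NSC-YAP, YAP-M, SVZ. Tyms (ENSMUSG00000025747, chromosome 5, 30058202 to 30073617, minus strand), thymidylate synthase, read 3.09, 2.61 and 2.54 CPM in SVZ, 10.5 and 10.5 in NSC-YAP, 23.9, 30.5 and 36.4 in YMdIDR, and 22.4, 22.97, 22.9 and 15.7 in YAP-M, with groups apart and NSC-YAP below both fusion groups.

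The cyclin E genes and E2F factors drive entry into S phase, and 3 of these 4 were the members not called in NSC-YAP. Ccne1 (ENSMUSG00000002068, chromosome 7, 38097984 to 38107534, minus strand) read 10.6, 7.96 and 7.92 CPM in SVZ, 11.6 and 9.78 in NSC-YAP, 49.5, 57.02 and 44.5 in YMdIDR, and 77.4, 88.3, 80.1 and 41.6 in YAP-M. NSC-YAP overlapped SVZ, and the fusion groups lay above both and overlapped each other. Ccne2 (ENSMUSG00000028212, chromosome 4, 11191351 to 11204779, plus strand) read 9.44, 9.21 and 8.75 CPM in SVZ, 6.31 and 6.73 in NSC-YAP, 18.6, 38.7 and 41.99 in YMdIDR, and 28.9, 30.05, 26.9 and 21.5 in YAP-M. NSC-YAP was the lowest group for this gene, below SVZ, and Ccne2 was the only member for which SVZ was not the lowest group by its mean. E2f1 (ENSMUSG00000027490, chromosome 2, 154559407 to 154569892, minus strand), an activator of S phase genes, read 8.06, 7.82 and 7.72 CPM in SVZ, 9.69 and 9.46 in NSC-YAP, 33.8, 32.7 and 31.8 in YMdIDR, and 25.2, 28.2, 23.7 and 17.03 in YAP-M. Its groups stood apart in the order YMdIDR, YAP-M, NSC-YAP, SVZ, although NSC-YAP was not called. E2f2 (ENSMUSG00000018983, chromosome 4, 136172394 to 136196057, plus strand), another activator, read 2.35, 2.29 and 2.64 CPM in SVZ, 5.29 and 5.14 in NSC-YAP, 9.87, 11.3 and 18.4 in YMdIDR, and 4.78, 6.85, 3.58 and 5.79 in YAP-M. YMdIDR lay above all others, YAP-M and NSC-YAP overlapped, and the log2 fold change against SVZ was 1.11 ± 0.27 in YAP-M, 2.44 ± 0.29 in YMdIDR and 1.10 ± 0.31 in NSC-YAP.

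In the mitotic list, Cdk1 and Ccnb1 rose by more than the list's median in each comparison with SVZ, and Ccna2 by less. Cdk1 (ENSMUSG00000019942, chromosome 10, 69335146 to 69352938, minus strand), the kinase that starts mitosis, read 2.30, 2.43 and 3.27 CPM in SVZ, 62.00 and 58.3 in NSC-YAP, 31.7, 54.2 and 74.8 in YMdIDR, and 65.6, 65.2, 69.4 and 41.6 in YAP-M. Its log2 fold change against SVZ was 4.50 ± 0.33 in YAP-M, 4.33 ± 0.33 in YMdIDR and 4.49 ± 0.35 in NSC-YAP, and the 3 non-SVZ groups overlapped. Ccnb1 (ENSMUSG00000041431, chromosome 13, 100778650 to 100786570, minus strand), its main mitotic cyclin, read 2.16, 3.55 and 2.79 CPM in SVZ, 72.3 and 72.04 in NSC-YAP, 29.6, 56.3 and 86.9 in YMdIDR, and 67.8, 71.4, 76.3 and 48.5 in YAP-M. The rise was the largest of the mitotic list in YAP-M, at 4.54 ± 0.37, and reached 4.34 ± 0.38 in YMdIDR and 4.67 ± 0.40 in NSC-YAP. Ccnb2 (ENSMUSG00000032218, chromosome 9, 70407692 to 70421547, minus strand), the other B-type cyclin of dividing somatic cells, read 1.57, 1.89 and 1.56 CPM in SVZ, 5.45 and 5.22 in NSC-YAP, 12.7, 20.4 and 31.9 in YMdIDR, and 30.98, 33.5, 31.6 and 18.8 in YAP-M. NSC-YAP stood between SVZ and the fusion groups without overlap, with the smallest rise of the mitotic list at 1.67 ± 0.36 against 4.10 ± 0.34 in YAP-M and 3.69 ± 0.35 in YMdIDR. Ccna2 (ENSMUSG00000027715, chromosome 3, 36564865 to 36572150, minus strand), the cyclin of S phase and G2, read 7.0, 9.39 and 8.36 CPM in SVZ, 88.2 and 84.4 in NSC-YAP, 54.3, 92.9 and 132 in YMdIDR, and 92.9, 88.8, 86.2 and 63.7 in YAP-M, with overlap among the 3 higher groups. Foxm1 (ENSMUSG00000001517, chromosome 6, 128362967 to 128376146, plus strand), a transcription factor of G2 and mitotic genes, read 3.59, 4.76 and 4.94 CPM in SVZ, 65.3 and 68.2 in NSC-YAP, 59.2, 113 and 149 in YMdIDR, and 86.9, 90.03, 95.1 and 63.8 in YAP-M. It had the largest rise of the mitotic list in YMdIDR, at 4.59 ± 0.32. Mybl2 (ENSMUSG00000017861, chromosome 2, 163054687 to 163084688, plus strand), the B-MYB that joins MuvB, read 2.03, 2.34 and 1.51 CPM in SVZ, 12.2 and 14.8 in NSC-YAP, 26.03, 42.2 and 51.8 in YMdIDR, and 52.1, 34.01, 69.4 and 21.6 in YAP-M. The fusion groups overlapped and lay above NSC-YAP, and the fourth YAP-M library was the lowest of its group.

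Cdc20 (ENSMUSG00000006398, chromosome 4, 118432901 to 118437352, minus strand), which activates the anaphase-promoting complex, read 1.43, 2.61 and 2.05 CPM in SVZ, 75.3 and 75.4 in NSC-YAP, 24.6, 33.2 and 49.5 in YMdIDR, and 52.2, 46.5, 52.8 and 35.1 in YAP-M. NSC-YAP lay above both fusion groups, and its rise of 5.21 ± 0.32 against SVZ was the largest of any member in any comparison. Ube2c (ENSMUSG00000001403, chromosome 2, 164769898 to 164778822, plus strand), the ubiquitin-conjugating enzyme of that complex, read 2.26, 3.33 and 3.23 CPM in SVZ, 94.1 and 88.02 in NSC-YAP, 40.5, 63.9 and 94.98 in YMdIDR, and 40.4, 45.7, 38.9 and 25.97 in YAP-M. NSC-YAP overlapped YMdIDR, and YMdIDR overlapped YAP-M. Pttg1 (ENSMUSG00000020415, chromosome 11, 43420250 to 43426251, minus strand), securin, which that complex degrades, read 2.72, 2.43 and 1.91 CPM in SVZ, 24.1 and 23.7 in NSC-YAP, 18.2, 20.9 and 30.2 in YMdIDR, and 25.7, 18.97, 20.6 and 17.4 in YAP-M, with overlap among the 3 higher groups. Among the mitotic kinases, Plk1 (ENSMUSG00000030867, chromosome 7, 122159439 to 122169873, plus strand) read 2.53, 3.15 and 3.67 CPM in SVZ, 60.9 and 60.2 in NSC-YAP, 28.7, 44.4 and 70.8 in YMdIDR, and 42.3, 55.4, 50.6 and 33.3 in YAP-M. Aurka (ENSMUSG00000027496, chromosome 2, 172356190 to 172370535, minus strand), the kinase of centrosomes and spindle poles, read 3.68, 3.10 and 4.25 CPM in SVZ, 41.9 and 43.1 in NSC-YAP, 26.2, 37.7 and 52.9 in YMdIDR, and 28.4, 29.9, 32.02 and 22.6 in YAP-M. Aurkb (ENSMUSG00000020897, chromosome 11, 69045647 to 69051664, plus strand), the kinase of the chromosomal passenger complex, read 0.829, 1.84 and 1.42 CPM in SVZ, 33.9 and 32.3 in NSC-YAP, 17.6, 24.8 and 36.9 in YMdIDR, and 21.2, 22.04, 18.00 and 15.3 in YAP-M. For these 3 kinases NSC-YAP overlapped YMdIDR and YMdIDR overlapped YAP-M. Birc5 (ENSMUSG00000017716, chromosome 11, 117849251 to 117855743, plus strand), survivin, a partner of Aurora B, read 2.90, 2.20 and 3.03 CPM in SVZ, 25.4 and 23.9 in NSC-YAP, 26.8, 33.3 and 46.4 in YMdIDR, and 34.6, 29.4, 32.6 and 22.6 in YAP-M. It rose by 3.46 ± 0.24 in YAP-M, 3.71 ± 0.24 in YMdIDR and 3.18 ± 0.25 in NSC-YAP. The checkpoint kinases Bub1 and Ttk and the checkpoint protein Bub1b hold back anaphase until chromosomes are attached. Bub1 (ENSMUSG00000027379, chromosome 2, 127801122 to 127831865, minus strand) read 1.11, 2.34 and 1.42 CPM in SVZ, 23.8 and 24.01 in NSC-YAP, 15.9, 28.6 and 37.8 in YMdIDR, and 28.00, 32.9, 21.5 and 24.5 in YAP-M, with overlap among the 3 higher groups. Bub1b (ENSMUSG00000040084, chromosome 2, 118598211 to 118641591, plus strand) read 2.81, 4.09 and 3.47 CPM in SVZ, 45.3 and 44.6 in NSC-YAP, 14.6, 30.2 and 43.8 in YMdIDR, and 28.8, 33.2, 24.6 and 26.2 in YAP-M, with NSC-YAP above the fusion groups. Ttk (ENSMUSG00000038379, chromosome 9, 83834689 to 83872389, plus strand) read 1.15, 1.89 and 1.81 CPM in SVZ, 18.1 and 20.5 in NSC-YAP, 8.63, 13.8 and 15.2 in YMdIDR, and 18.8, 21.5, 15.1 and 14.2 in YAP-M, with NSC-YAP overlapping YAP-M and YAP-M overlapping YMdIDR.

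Of the kinetochore genes, Cenpa (ENSMUSG00000029177, chromosome 5, 30666777 to 30674830, plus strand), the histone H3 variant of centromeres, read 2.44, 2.83 and 2.74 CPM in SVZ, 55.3 and 56.95 in NSC-YAP, 22.2, 30.3 and 42.8 in YMdIDR, and 31.2, 35.1, 28.5 and 26.97 in YAP-M. NSC-YAP lay above both fusion groups, which overlapped. Cenpe (ENSMUSG00000045328, chromosome 3, 135212537 to 135273611, plus strand), a kinetochore motor, read 2.67, 4.81 and 5.33 CPM in SVZ, 37.4 and 41.95 in NSC-YAP, 29.1, 42.3 and 52.8 in YMdIDR, and 96.7, 92.1, 79.4 and 52.9 in YAP-M. YAP-M lay above YMdIDR and NSC-YAP, which overlapped. Cenpf (ENSMUSG00000026605, chromosome 1, 189640606 to 189688086, minus strand), a large kinetochore protein, read 3.22, 5.17 and 5.67 CPM in SVZ, 53.1 and 63.8 in NSC-YAP, 17.2, 29.9 and 41.6 in YMdIDR, and 62.9, 62.2, 50.02 and 37.3 in YAP-M, and NSC-YAP overlapped YAP-M while YAP-M overlapped YMdIDR. Ndc80 (ENSMUSG00000024056, chromosome 17, 71496100 to 71526857, minus strand), which binds microtubules at the kinetochore, read 0.737, 1.21 and 1.03 CPM in SVZ, 12.7 and 12.2 in NSC-YAP, 8.25, 14.3 and 19.6 in YMdIDR, and 22.5, 21.9, 18.2 and 16.6 in YAP-M. Its 3 higher groups overlapped from neighbour to neighbour. Of the spindle genes, Tpx2 (ENSMUSG00000027469, chromosome 2, 152847964 to 152895321, plus strand), an activator of Aurora A, read 4.65, 6.20 and 5.52 CPM in SVZ, 114 and 115 in NSC-YAP, 63.5, 83.5 and 105 in YMdIDR, and 102, 103, 105 and 69.9 in YAP-M. NSC-YAP lay above the fusion groups. Nusap1 (ENSMUSG00000027306, chromosome 2, 119618298 to 119651244, plus strand), a microtubule-binding protein, read 6.08, 7.01 and 6.01 CPM in SVZ, 68.7 and 68.3 in NSC-YAP, 24.02, 27.5 and 47.5 in YMdIDR, and 30.5, 32.2, 24.2 and 26.01 in YAP-M. NSC-YAP again lay above both, and Nusap1 had the smallest rise of the mitotic list in YAP-M and YMdIDR, at 2.15 ± 0.23 and 2.37 ± 0.24, against 3.43 ± 0.26 in NSC-YAP. Kif20a (ENSMUSG00000003779), a kinesin of cytokinesis, read 2.76, 2.83 and 2.74 CPM in SVZ, 38.2 and 38.4 in NSC-YAP, 14.1, 36.9 and 53.03 in YMdIDR, and 43.7, 38.97, 40.9 and 33.7 in YAP-M, with overlap among the 3 higher groups. Kif11 (ENSMUSG00000012443, chromosome 19, 37376403 to 37421859, plus strand), the kinesin that separates spindle poles, stands on 2 lines of the tables with the same count in all 12 libraries, so its summed level counts each read again and is not given; its log2 fold change against SVZ was 2.85 ± 0.34 in YAP-M, 2.68 ± 0.35 in YMdIDR and 3.49 ± 0.37 in NSC-YAP. Top2a (ENSMUSG00000020914, chromosome 11, 98992943 to 99024189, minus strand), the topoisomerase that untangles sister chromatids, read 10.7, 16.1 and 14.5 CPM in SVZ, 194 and 195 in NSC-YAP, 67.4, 122 and 202 in YMdIDR, and 135, 146, 107 and 99.8 in YAP-M. It rose by 3.15 ± 0.34 in YAP-M, 3.24 ± 0.35 in YMdIDR and 3.82 ± 0.37 in NSC-YAP. Mki67 (ENSMUSG00000031004, chromosome 7, 135689784 to 135716361, minus strand), the gene of the proliferation marker Ki-67, read 10.3, 19.4 and 15.7 CPM in SVZ, 165 and 190.2 in NSC-YAP, 82.4, 146 and 180.5 in YMdIDR, and 219.5, 215, 175 and 152 in YAP-M. It rose by 3.65 ± 0.31 in YAP-M, 3.17 ± 0.31 in YMdIDR and 3.55 ± 0.33 in NSC-YAP, and the 3 higher groups overlapped. The spans of Mcm7, Cdc45, Gins2, Ccne2, Tk1, Ccna2, Cdc20, Kif20a and Nusap1 overlap a gene on the other strand read at 1 CPM or more. Spans run from gene start to gene end with introns, and whether exons overlap was not determined. The sources used here do not say whether counting used strand, so the levels of these 9 members are uncertain to that extent.

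Other genes of the same pathways mostly moved the same way against SVZ. Of 167 such genes in 9 lists, 113 rose and 3 fell in YAP-M, 117 rose and 5 fell in YMdIDR, and 112 rose and 2 fell in NSC-YAP, with median log2 fold changes of 1.76, 2.05 and 1.69, smaller than those of the members. Over all genes tested, 25.8%, 26.9% and 17.5% were called higher in these groups and 28.9%, 29.6% and 27.6% lower. Of 12 origin licensing and firing genes, 7 rose in YAP-M and YMdIDR and 6 in NSC-YAP, with the smallest adjusted p in YAP-M for Topbp1, at 2.07 ± 0.12, and for Dbf4, the activator of the CDC7 kinase, at 4.82 ± 0.30. Cdc7 itself fell in YAP-M, at -1.21 ± 0.17. Of 27 replication fork genes, 16, 20 and 15 rose and none was called lower, with the polymerase subunits Pole at 2.37 ± 0.20 and Pold1 at 1.92 ± 0.16 in YAP-M and the clamp loader subunit Rfc3 at 2.07 ± 0.11. Of 10 nucleotide supply genes, 5, 6 and 4 rose. Samhd1, which degrades deoxynucleotides and is also abundant in macrophages, rose by 2.83 ± 0.11 in YAP-M, from 19.99 ± 1.09 CPM (SD, n = 3) to 142 ± 11.1 CPM (SD, n = 4). The macrophage marker sum moved with it, at 342 to 465 CPM in SVZ and 1373 to 2144 in YAP-M, and its part in that rise was not tested. Rrm2b, the p53-inducible subunit of ribonucleotide reductase, fell in YMdIDR, at -1.02 ± 0.18. Of 8 chromatin duplication genes, 7, 7 and 6 rose. The histone chaperones Chaf1b and Asf1b reached 4.17 ± 0.22 and 4.08 ± 0.23 in YAP-M.

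Among 16 regulators of the E2F, RB and MuvB families, 7 rose in YAP-M, 7 in YMdIDR and 5 in NSC-YAP. Over all genes tested the shares called higher were 25.8%, 26.9% and 17.5% in the same order. The repressor-type factors E2f7 and E2f8 rose by 4.25 ± 0.37 and 3.13 ± 0.20 in YAP-M. Against that direction, Lin52, a MuvB subunit, fell in YAP-M (-1.11 ± 0.10) and in YMdIDR (-1.49 ± 0.12), and Rbl2, the RB relative p130 of resting cells, fell in YMdIDR (-1.62 ± 0.11). Of 15 CDK partners and regulators, 12, 11 and 13 rose. The CDK-binding proteins Cks1b and Cks2 reached 4.34 ± 0.21 and 3.84 ± 0.22 in YAP-M, and Ccna1, the germline cyclin A, fell in YMdIDR (-2.03 ± 0.41). Of 38 kinetochore and checkpoint genes, 29, 29 and 30 rose, with Cdca8 at 3.48 ± 0.21, Haspin at 3.68 ± 0.24 and Ska1 at 4.18 ± 0.28 in YAP-M. Zwint, also expressed in neurons, fell in NSC-YAP at -1.26 ± 0.11. Of 25 genes of spindle motors, centrosome and cytokinesis, 21, 21 and 22 rose, with Ckap2 at 3.36 ± 0.18 and Hmmr at 4.45 ± 0.30 in YAP-M. Cit, citron kinase, which neurons also express, fell in all 3 comparisons, at -3.66 ± 0.22 in YAP-M, -3.34 ± 0.24 in YMdIDR and -3.18 ± 0.29 in NSC-YAP. The neuron marker sum is highest in SVZ, and its part in the values of Cit and Zwint was not tested. Of 16 condensin, cohesin and separase genes, 9, 9 and 11 rose, with the condensin subunit Ncaph at 2.67 ± 0.20 and Cdca5 (sororin) at 3.78 ± 0.32 in YAP-M.

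The comparison of YAP-M with YMdIDR sets the fusion beside the fusion without its disordered region, as far as the conflicting tissue labels of YMdIDR allow. The level of Yap1 differs as well, at 92.7 to 105 CPM in YAP-M and 183, 838 and 1274 CPM in YMdIDR. The disordered region and the level of Yap1 cannot be told apart in this comparison. Of the 26 mitotic members none was called in either direction by edgeR, and their median log2 difference (YAP-M minus YMdIDR) was 0.05, against 0.01 over all genes. In the S phase list 2 of 19 were lower in YAP-M and none higher, with a median of -0.48. Over all genes, 9.61% were called higher and 6.78% lower, so the 2 S phase calls are near the background share. Marker lists move with this comparison too. The neural progenitor sum was 1722 to 2354 CPM in YAP-M and 2754 to 3879 in YMdIDR, and the astrocyte sum 1943 to 2956 and 544 to 1791. Gene by gene, the progenitor list showed no shift in the direction of its sum. Its median log2 difference (YAP-M minus YMdIDR) was 0.23, and 5 of its 9 differences were positive. Calls in that list numbered 2 in each direction. Of the astrocyte markers 4 of 7 and of the erythroid markers 5 of 7 were called higher in YAP-M, and 0 lower. Endothelial and pericyte markers had 3 of 8 called higher and 0 lower. Oligodendrocyte markers had 1 of 10 called higher and 0 lower, with a median log2 difference of 1.03. Of the neuron markers 5 of 12 were called higher and 2 lower. The part of these markers in the member differences was not tested. Cdc6 stood at 10.1, 19.5 and 21.4 CPM in YMdIDR and 7.54, 7.52, 8.49 and 5.23 CPM in YAP-M, a log2 difference of -1.24 ± 0.30 (SE, edgeR adjusted p = 0.00712). E2f2 stood at 9.87, 11.3 and 18.4 CPM and 4.78, 6.85, 3.58 and 5.79 CPM, a difference of -1.33 ± 0.25 (edgeR adjusted p = 0.00183). Neither gene overlapped between the groups. With the adjusted p alone, whatever the size, 11 of 19 S phase members were lower in YAP-M against 22.9% of all genes, and the same number did not overlap, against 22.5%. The 11 that passed the adjusted p were Mcm2 (-0.67 ± 0.14), Mcm3 (-0.60 ± 0.17), Mcm6 (-0.41 ± 0.10), Mcm7 (-0.56 ± 0.12), Cdt1 (-0.55 ± 0.17), Cdc45 (-0.83 ± 0.22), Tk1 (-0.50 ± 0.13), Tyms (-0.53 ± 0.17), E2f1 (-0.48 ± 0.15), Cdc6 and E2f2. All but Cdc45 did not overlap between the groups, nor did Gins2, which missed the threshold at -0.30 ± 0.14 (adjusted p = 0.108). Rrm1 (0.17 ± 0.19), Rrm2 (0.21 ± 0.23) and Ccne1 (0.51 ± 0.23) had positive differences, none of which passed. The count of 11 fell to 8 without the second and 7 without the third YMdIDR library and rose to 15 without the first, and it was 6 with no filter on low counts. In the mitotic list the same threshold passed 2 genes higher in YAP-M, Cenpe at 0.96 ± 0.27 (adjusted p = 0.0146) and Cenpf at 0.85 ± 0.29 (0.0361), against 20.6% of all genes. Ube2c was lower, at -0.82 ± 0.26 (0.0264). Single libraries and settings decided some calls. Cenpe (1.17) and Cenpf (1.17) were called without the third YMdIDR library, Cenpe also without the second (1.01) or without the fourth YAP-M library (1.12), and Ube2c (-1.07) and Cdc45 (-1.05) were called without the first YMdIDR library. Cenpe was called too with no filter on low counts (1.03), with median-ratio scaling and DESeq2 (1.01 in both) and without mitochondrially encoded genes (1.01). Differences nearest 0 were those of Bub1 (-0.04 ± 0.28), Cenpa (-0.06 ± 0.18) and Bub1b (-0.07 ± 0.28). A p that misses the threshold does not show that levels were alike: the standard errors of the member differences ran up to 0.35 on the log2 scale.

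The YMdIDR libraries differed among themselves along these same genes. Replicate 1 was the lowest and replicate 3 the highest for 42 of 45 members, 16 of 19 of S phase and 26 of 26 of mitosis, against 21.9% of all genes tested. The ratio of the highest to the lowest YMdIDR library had a median of 1.56 over the S phase members and 2.35 over the mitotic members, up to 3.75 for Kif20a. The level of Yap1 lay in the same order, at 183, 838 and 1274 CPM. The sum of oligodendrocyte markers was 1368, 387 and 683 CPM and that of astrocyte markers 1791, 544 and 1015 CPM in the same libraries, and the part of these quantities in the spread was not tested. In YAP-M, replicate 4 was the lowest library for 37 of 45 members, 14 of S phase and 23 of mitosis, against 27.8% of all genes. Its oligodendrocyte marker sum was 3412 CPM, against 724 to 1760 CPM in the other 3, and its neuron marker sum 694 CPM, against 320 to 502 CPM. Their part in its low member levels was not tested.

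**Figure D3:**
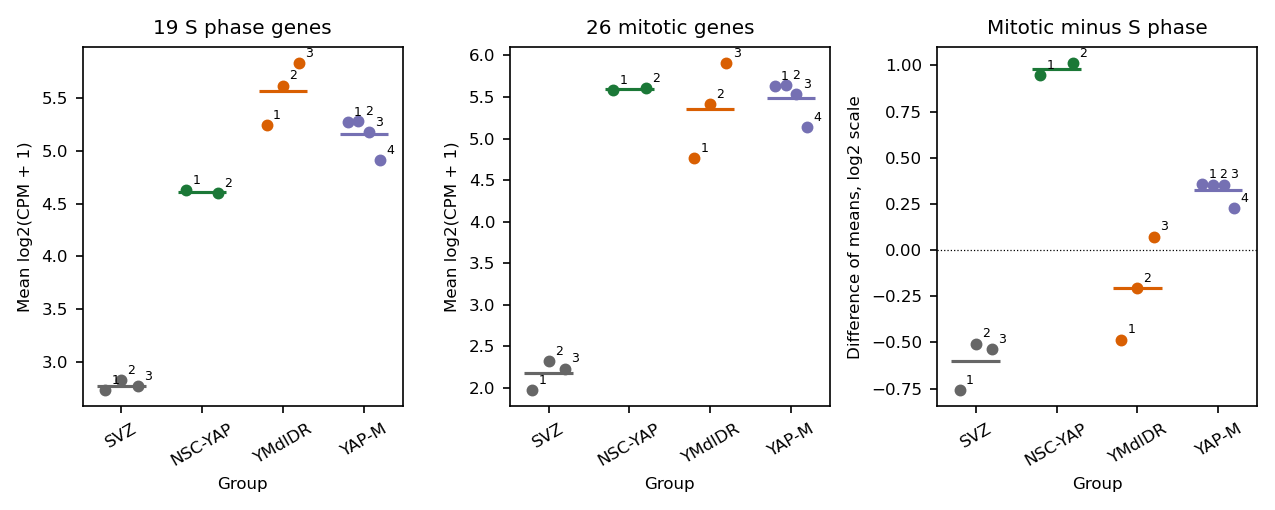
Mean log2(CPM + 1) over the 19 S phase members and the 26 mitotic members in each library (numbered points) and the difference of these means, by group, with the bar at the group mean. SVZ lies near 2.78 for S phase and 2.17 for mitosis, and the YMdIDR points are the most widely spread, while the S phase mean is highest in YMdIDR and the difference in NSC-YAP.

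Averaged over its 19 genes, the S phase list stood at 2.78 ± 0.05 log2(CPM + 1) in SVZ (SD, n = 3), 4.63 and 4.60 in the 2 NSC-YAP libraries, 5.57 ± 0.30 in YMdIDR (n = 3) and 5.16 ± 0.17 in YAP-M (n = 4). The mitotic list stood at 2.17 ± 0.18, at 5.58 and 5.61, at 5.36 ± 0.57 and at 5.49 ± 0.24. The mitotic mean minus the S phase mean was -0.76, -0.51 and -0.54 in SVZ, 0.95 and 1.01 in NSC-YAP, -0.48, -0.21 and 0.07 in YMdIDR, and 0.36, 0.36, 0.35 and 0.23 in YAP-M. The 4 groups do not overlap on this difference. SVZ thus lay furthest towards S phase genes and NSC-YAP furthest towards mitotic genes, with YMdIDR next to SVZ and YAP-M next to NSC-YAP. The first YMdIDR library came close to SVZ, and the third lay above 0. This is a description of levels. The highest group mean fell in YMdIDR for 16 of 19 S phase members and in YAP-M for the other 3 (Rrm1, Rrm2 and Ccne1), while YMdIDR had the highest mean for 23.9% and YAP-M for 18.9% of all genes. In 11 of the 16 every YMdIDR library lay above all libraries of the other groups. Over all genes, YMdIDR lay above YAP-M alone without overlap for 22.5%, and the share above all groups can be no larger. Among the mitotic members it fell in NSC-YAP for 15 of 26, in YAP-M for 7 and in YMdIDR for 4 (Ccna2, Bub1, Birc5 and Foxm1), against 25.6% of all genes for NSC-YAP. In 6 of the 15 both NSC-YAP libraries lay above all others, and in the other 9 they overlapped another group. The share of all genes with both NSC-YAP libraries above all others was not taken, so this count only describes levels.

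Against NSC-YAP, the cultured progenitors with YAP, the tumours with YAP-M were called higher for 4 of 19 S phase members and 3 of 26 mitotic members, and lower for none and 2, while 28.9% of all genes were called higher and 21.6% lower. Mcm6 (0.92 ± 0.13) and Tyms (0.997 ± 0.21) missed the size threshold and passed it with no filter on low counts, with median-ratio scaling and with DESeq2, which gave 6 of 19. The marker lists move with this comparison: all 10 macrophage and all 8 endothelial and pericyte markers were called higher in YAP-M, with median log2 differences of 10.04 and 8.06, and 5 of 9 neural progenitor markers lower and 1 higher. Their part in the member differences was not tested. Ccne1 had the largest difference, 2.75 ± 0.30 on the log2 scale (SE, edgeR adjusted p = 8.47e-06), followed by Ccne2 at 2.04 ± 0.30 (8.57e-05), Rrm2 at 2.002 ± 0.29 (8.81e-05) and E2f1 at 1.30 ± 0.18 (5.63e-05). The differences nearest 0 in this list were those of E2f2 (0.01 ± 0.29), Gins2 (0.07 ± 0.16) and Rrm1 (0.07 ± 0.22). In the mitotic list Ccnb2 (2.43 ± 0.36, edgeR adjusted p = 9.85e-05) and Mybl2 (1.72 ± 0.43, 0.00391) were higher in YAP-M, and Ube2c (-1.27 ± 0.29, 0.00201) and Nusap1 (-1.28 ± 0.22, 0.000356) lower. Cenpe was also called higher, at 1.02 ± 0.31 (edgeR adjusted p = 0.0118), and lost the call without either of the first 2 YAP-M libraries (0.95 and 0.99) or either NSC-YAP library (adjusted p = 0.0775 and 0.0528). Cdk1 (0.01 ± 0.29), Kif20a (0.04 ± 0.36) and Ccna2 (-0.06 ± 0.27) had the differences nearest 0. With the adjusted p alone 6 of 26 mitotic members were lower in YAP-M, against 34.5% of all genes.

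Against NSC-YAP, YMdIDR was called higher for 8 of 19 S phase members and lower for none, while 27.4% of all genes were called higher and 20.4% lower. The 8 were Ccne2 (2.34 ± 0.31, edgeR adjusted p = 4.55e-05), Ccne1 (2.23 ± 0.30, 4.69e-05), Rrm2 (1.80 ± 0.30, 0.00025), E2f1 (1.77 ± 0.19, 8.3e-06), Cdc6 (1.55 ± 0.38, 0.00391), Tyms (1.52 ± 0.22, 8.41e-05), E2f2 (1.34 ± 0.31, 0.00278) and Mcm6 (1.33 ± 0.13, 5.09e-06). Mcm2 (0.98 ± 0.17) and Mcm3 (0.99 ± 0.21) missed the size threshold and were called as well, for 10 of 19, with no filter, at 5 CPM, with median-ratio scaling, without mitochondrially encoded genes, with DESeq2 and with the compared groups alone. E2f2 was not called by limma on quantile-normalized values, at 0.93 (adjusted p = 0.0298). All 10 macrophage and all 8 endothelial and pericyte markers were called higher in YMdIDR than in NSC-YAP, and 6 of 9 neural progenitor markers lower and 2 higher, and their part was not tested. Rrm1 (-0.09 ± 0.23), Tk1 (0.30 ± 0.16) and Mcm7 (0.32 ± 0.15) had the differences nearest 0. Of the 26 mitotic members 2 were higher, Ccnb2 at 2.02 ± 0.36 (edgeR adjusted p = 0.000453) and Mybl2 at 1.57 ± 0.44 (0.00821), and 2 lower, Cdc20 at -1.07 ± 0.28 (0.00492) and Nusap1 at -1.05 ± 0.24 (0.0024). Mybl2 lost its call without the first NSC-YAP library (adjusted p = 0.0667). Cdc20 and Nusap1 lost theirs without the first YMdIDR library (-0.86 and -0.87), and Nusap1 also without the second (-0.94). Without the third YMdIDR library, which read the mitotic members highest, 7 mitotic members were called lower in place of 2. With the adjusted p alone 4 of 26 were lower, against 31.6% of all genes. Median log2 differences were 0.98 for S phase and -0.32 for mitosis, against 0.13 over all genes. Quantile scaling in limma moved the all-gene median from 0.13 to -0.13 here, from 0.10 to -0.18 for YAP-M minus NSC-YAP and from -0.10 to 0.25 for NSC-YAP minus SVZ. Relative to it, the S phase median of YMdIDR minus NSC-YAP was 0.85 under TMM and 1.06 under quantile scaling, and the mitotic median -0.45 and -0.24. For YAP-M minus NSC-YAP the relative S phase median was 0.18 and 0.46, and the mitotic one -0.24 and 0.06, so its sign turned. Both comparisons use the same 2 NSC-YAP libraries.

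**Figure D4:**
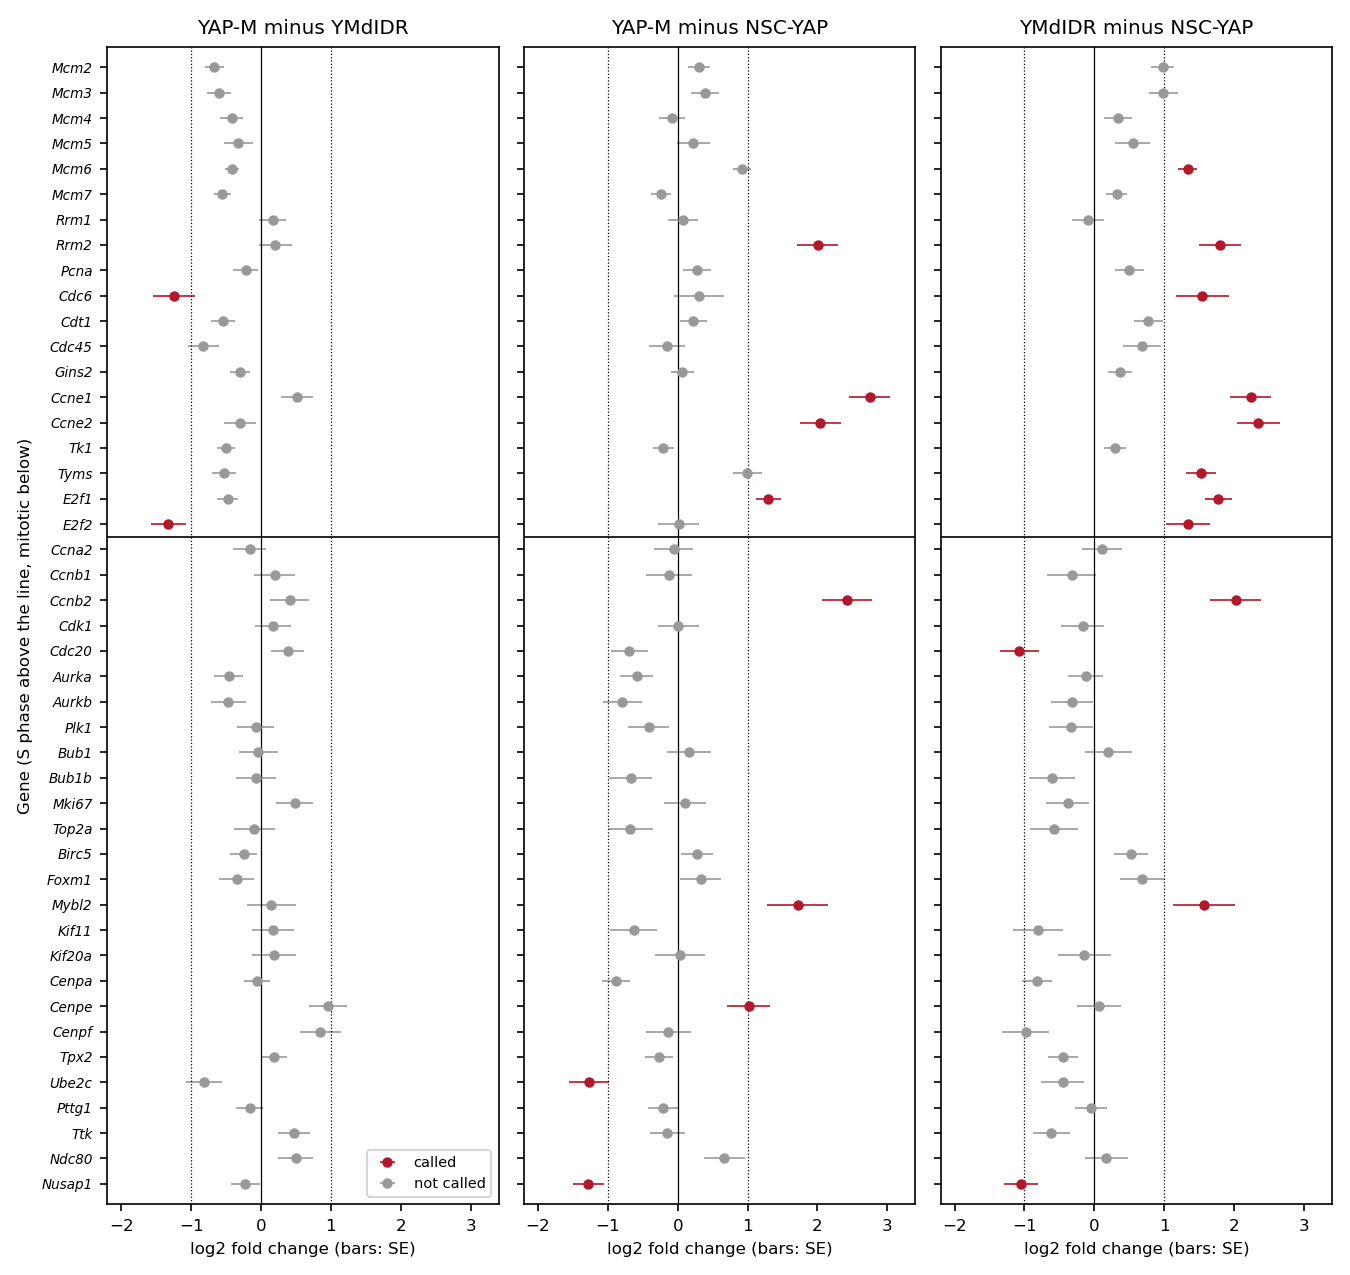
Log2 fold change with SE of each member in YAP-M minus YMdIDR, YAP-M minus NSC-YAP and YMdIDR minus NSC-YAP, with red points for called members and dotted lines at 1 and -1. Ccne1, Ccne2 and Rrm2 lie far to the right in both comparisons with NSC-YAP, and E2f2 and Cdc6 are the red points of the first.

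Within families, the ratio of members differed between groups, on the scale of CPM per kilobase of the deposited gene length. Rrm2, Ccne1 and E2f1 were read more than Rrm1, Ccne2 and E2f2 in all 12 libraries, while Ccnb2 was read less than Ccnb1 in both NSC-YAP libraries and, at a ratio of 0.996, in the second YMdIDR library. The ratio of Ccnb2 to Ccnb1 was 1.67 ± 0.28 in SVZ (SD, n = 3), 1.06 ± 0.10 in YMdIDR (n = 3) and 1.19 ± 0.10 in YAP-M (n = 4), but 0.1995 and 0.208 in the 2 NSC-YAP libraries, below every library of the other groups. The ratio of Rrm2 to Rrm1 was 1.25 ± 0.14 in SVZ and 1.18 and 1.19 in NSC-YAP, against 4.33 ± 0.47 in YMdIDR and 4.501 ± 0.63 in YAP-M. These 2 sets of groups did not overlap. The ratio of Ccne1 to Ccne2 ran from 1.13 to 1.47 in SVZ, from 1.91 to 2.41 in NSC-YAP, from 1.39 to 3.498 in YMdIDR and from 2.54 to 3.90 in YAP-M. YAP-M lay above SVZ and NSC-YAP here and overlapped YMdIDR. The ratio of E2f1 to E2f2 was 5.04 ± 0.44 in SVZ, 2.83 and 2.85 in NSC-YAP, 4.15 ± 1.34 in YMdIDR and 7.33 ± 2.43 in YAP-M, and the last 2 groups overlapped. The 6 Mcm genes, whose proteins form a helicase with 1 copy of each, were read more evenly where they were read more. The ratio of the highest to the lowest of them per length was 3.64 ± 0.71 in SVZ, 2.12 and 2.22 in NSC-YAP, 1.62 ± 0.15 in YMdIDR and 1.63 ± 0.14 in YAP-M. SVZ and NSC-YAP each stood apart from the fusion groups, which overlapped.

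**Figure D5:**
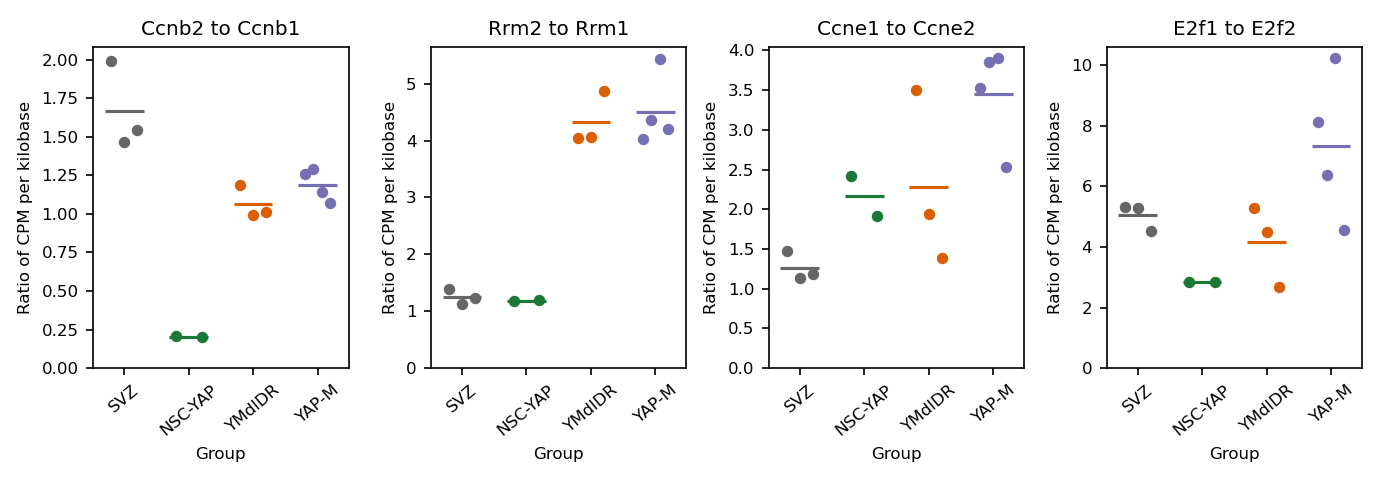
Ratio of 2 family members per length in each library (points, linear axes from 0, bar at the group mean) by group, for Ccnb2 to Ccnb1, Rrm2 to Rrm1, Ccne1 to Ccne2 and E2f1 to E2f2. NSC-YAP lies near 0.204 for Ccnb2 to Ccnb1, and both fusion groups lie above 4 for Rrm2 to Rrm1.

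The other pathway genes also differed less among these 3 groups than from SVZ. Between YAP-M and YMdIDR, 3 of 167 were higher in YAP-M, namely Rbl2 (1.15 ± 0.10), Ccna1 (2.01 ± 0.39) and Ckap2 (1.05 ± 0.15), and 3 lower, namely Pold1 (-1.07 ± 0.15), Uhrf1 (-1.18 ± 0.16), a reader of hemimethylated DNA, and the condensin subunit Ncapd2 (-1.02 ± 0.22), while 9.61% and 6.78% of all genes were called. The higher count was 7 without the third YMdIDR library and 5 without the second or without the first YAP-M library. The lower count was 8 without the first YMdIDR library and 1 without the second or without the fourth YAP-M library. Against NSC-YAP, YAP-M was higher for 22 and lower for 16 of the 167, while 28.9% and 21.6% of all genes were called, so neither count stands above the background. The higher genes included Samhd1 (2.44 ± 0.13), the origin recognition subunit Orc2 (1.23 ± 0.19), Gmnn (1.16 ± 0.27), the geminin that binds CDT1, Dbf4 (1.55 ± 0.29), Slbp (1.19 ± 0.14), which binds histone messenger RNA, and the phosphatase Cdc25a (1.30 ± 0.22). The lower genes included the centromere genes Cenpm (-2.56 ± 0.22) and Hjurp (-1.90 ± 0.33), Ncapd2 (-2.35 ± 0.24), Cdc25b (-2.15 ± 0.20), Cdc7 (-1.55 ± 0.18), Pold1 (-1.37 ± 0.16), Pold2 (-1.33 ± 0.12) and the microtubule polymerase Ckap5 (-1.53 ± 0.12). YMdIDR was higher than NSC-YAP for 20 and lower for 17, against 27.4% and 20.4% of all genes, again no more than the background. The lower genes included Cenpm (-2.44 ± 0.24), Cdc25b (-1.92 ± 0.22), Ckap5 (-1.93 ± 0.13), Ckap2 (-1.85 ± 0.18), the pocket proteins Rbl2 (-1.72 ± 0.12) and Rb1 (-1.46 ± 0.13) and the cohesin subunit Rad21 (-1.59 ± 0.18). The macrophage marker sum is 42.3 to 44.2 CPM in NSC-YAP, and its part in the Samhd1 difference was not tested. Of the chromatin duplication list 5 of 8 were higher in YMdIDR than in NSC-YAP, among them Asf1b (1.77 ± 0.23), Chaf1b (1.60 ± 0.22) and Hells (1.30 ± 0.20), and none was lower. The number higher in this comparison ran from 13 without the third YMdIDR library to 31 without the first.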

How the data were processed

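RNA-seq was analysed in 12 libraries: SVZ 3, NSC-YAP 2, YMdIDR 3 and YAP-M 4. Per the labels' protocols, total RNA was extracted with TRIzol and RNeasy and made into libraries with the Illumina TruSeq RNA kit. The submitters' processing notes name TopHat2 and mm10. The counting program, its use of strand, the annotation release and tool versions were not given in the sources used here. The authors deposited raw read counts per gene, with the gene's coordinates and a length. Lines that share a symbol (453 of 53090) were summed, which left 52850 symbols.

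All 12 libraries were fitted together, with 1 coefficient per group and no block, by edgeR 4.0.16 (TMM, glmQLFit, glmQLFTest, R 4.3.3) on the 18329 genes that reached 1 CPM in 2 or more libraries. Calls used Benjamini-Hochberg adjusted p below 0.05 together with a log2 difference of 1 or more. SE is the log2 fold change over the square root of the F statistic. The TMM factors ran from 0.826 to 1.128. Mitochondrially encoded genes took 12.7% to 17.0% of counts in SVZ and 4.91% to 7.05% elsewhere. Per-length levels divide CPM by the deposited length. The fit was tested on simulated data. Alternatives were no filter, 5 CPM, median-ratio scaling, no mitochondrially encoded genes, DESeq2 1.42.0, limma 3.58.1 on quantile-normalized values, a replicate block, 1 line per symbol, the compared groups alone, adjusted p alone, and each library left out. Promoter letters were read from RefSeq windows of GRCm38.p6, with Python 3.11.15.

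The members and gene lists were chosen with earlier results of these data known. Any member may be named. Per-library values are given for the members of main interest and for the 3 largest and 3 smallest differences of each list. Of the other pathway lists, up to 4 genes with the smallest adjusted p and those called against their list's direction are named.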

Additional observations from a re-analysis of the deposited data

Results flagged for a closer look

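Of 48 values tested in the 4 YAP-M libraries (45 members and 3 list levels), 5 had a library whose gap to its nearest neighbour was too large a part of the group's whole range (Dixon's test at the 95% level), where chance flags about 1 in 20. All 5 concerned replicate 4 as the lowest library. The 48 values come from the same 4 libraries, and the 3 list levels are made from the members. They are not independent of each other, so the count of 5 cannot be weighed against that rate. Pcna, the sliding clamp, read 103 CPM there. Tyms, thymidylate synthase, read 15.7 CPM. Cdk1, the mitotic kinase, read 41.6 CPM, and Tpx2, an activator of Aurora A, 69.9 CPM. The mitotic mean minus the S phase mean was 0.23 on the log2(CPM + 1) scale, against 0.35 to 0.36 in the other 3 libraries. The groups of 2 and 3 libraries were not tested in this way.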

How the results depend on the processing

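Against SVZ, no member changed its call or direction in any refit. Each member was read in each refit, which gave 720 member readings for YAP-M, 675 for YMdIDR and 630 for NSC-YAP. Readings of 1 refit come from the same fit and are not separate checks. Among the other 3 comparisons no called member reversed, and uncalled members near 0 changed sign in at least 1 refit for 15 members (YAP-M minus YMdIDR), 8 (YAP-M minus NSC-YAP) and 9 (YMdIDR minus NSC-YAP). For YAP-M minus YMdIDR, mitotic members called higher numbered 1 with no filter, with median-ratio scaling, without mitochondrially encoded genes and with DESeq2, and 2 (Cenpe and Cenpf) with a replicate block and with adjusted p alone, in place of 0. With adjusted p alone, mitotic members called lower numbered 1 and S phase members called lower 11, in place of 2. That last count, followed through the refits after seeing the data, was 6 with no filter and 7 to 15 without single libraries. With adjusted p alone, mitotic members called lower numbered 6 for YAP-M minus NSC-YAP and 4 for YMdIDR minus NSC-YAP, where the replicate block also gave 4, in place of 2 in both. Replicate numbers were not used as pairs in the main fit. Correlations of same-numbered deviations ran from -0.0968 to 0.386. Of 3 libraries a group, 2 (SVZ with YMdIDR), 0 (SVZ with YAP-M) and 3 (YMdIDR with YAP-M) correlated best with their own number. For YMdIDR with YAP-M the correlations were 0.001, 0.386 and 0.124, so whether those groups are paired by number was not settled. Without single libraries, calls for YAP-M minus YMdIDR ran from 2 to 3 (S phase lower), 0 to 2 (mitotic higher), 0 to 1 (mitotic lower), 2 to 7 (other pathway genes higher) and 1 to 8 (lower). For YAP-M minus NSC-YAP they ran from 4 to 6 (S phase higher), 2 to 3 (mitotic higher), 2 to 2 (mitotic lower), 18 to 27 (other pathway genes higher) and 14 to 17 (lower). For YMdIDR minus NSC-YAP they ran from 8 to 10 (S phase higher), 1 to 2 (mitotic higher), 0 to 7 (mitotic lower), 13 to 31 (other pathway genes higher) and 14 to 22 (lower). In the comparisons with SVZ, other pathway genes called higher ran from 117 to 120 (YAP-M), 113 to 121 (YMdIDR) and 110 to 116 (NSC-YAP), and lower from 2 to 3, 4 to 5 and 2 to 2. The higher count of YAP-M with all libraries was 113, outside its range without single libraries. In the 100 bases before the start, E2F type letters stood in 12.5% of S phase, 4.762% of mitotic and 4.374% of all windows, CHR type letters in 12.5%, 28.57% and 7.182%, and CCAAT in 56.25%, 66.67% and 21.61%. The causes of these changes were not tested. At 13 counts or more per member and library, counting error is largest in SVZ.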
